A study of Homo sapiens with 6 samples.

Results

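The genes described here are 10 feedback inhibitors of the ERK pathway, the phosphatases DUSP1, DUSP4, DUSP5, DUSP6 and DUSP7, the Sprouty genes SPRY1, SPRY2 and SPRY4, and the Sprouty-related genes SPRED1 and SPRED2. They were taken by gene name from the 44591 genes listed for each library, and each name had exactly 1 row. All 10 passed the filter on low counts, as did 16222 genes in all. The libraries came from A2780, an established human ovarian cancer cell line labelled as wild type and grown in DMEM with fetal bovine serum. Of these libraries, 3 came from cells left untreated. The other 3 came from cells given human recombinant CRMP2 (r-CRMP2) at 40 ng/ml. CRMP2 is a microtubule-associated protein that the study traces to cancer-associated fibroblasts. All 6 libraries carry a time of 48 h in their labels. The labels name no vehicle or other protein for the untreated cells, and all libraries are from 1 cell line.

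ERK1 and ERK2 are the last kinases of a relay in which growth factor receptors, such as the FGF receptors, switch on RAS, RAS switches on RAF kinases, and these switch on MEK kinases. Active ERK enters the nucleus and raises transcription of growth genes, and among these are genes whose products shut the relay down again. The DUSP phosphatases remove the activating phosphates from ERK itself, Sprouty proteins act higher up between the receptor and RAF, and SPRED proteins bring the RAS inactivator neurofibromin (NF1) to the membrane. Activating mutations of RAS and RAF genes are known in some ovarian cancers.

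The 10 inhibitors did not move together. DUSP1 and DUSP5 rose 3.58-fold and 3.74-fold, SPRY1 and SPRY2 rose 1.94-fold and 1.68-fold, and DUSP7 rose 1.14-fold, a change whose sign turned when libraries were scaled by their totals alone. SPRED1 fell to 0.774 of its untreated level. DUSP4, DUSP6, SPRY4 and SPRED2 did not pass the test. In bulk RNA, a change in the share of cells that express a gene and a change in RNA per cell cannot be told apart. Thus 5 of the 10 genes were higher with r-CRMP2 at a threshold of 0.05 on the adjusted p-value (quasi-likelihood test of edgeR, Benjamini-Hochberg adjustment over all genes tested), where 28.2% of all genes tested were higher. In the same test 1 of the 10 genes was lower, where 30.1% of all genes were. With a log2 fold change above 1 required as well, 2 of the 10 were upregulated, against 5.12% of all genes, and none was downregulated, against 8.86%. The 10 genes had a median log2 fold change of 0.30, and all genes tested had one of -0.03.

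The libraries held between 21888530 and 25711353 counts. r-CRMP2 replicate 3, the deepest library, had a count for 22438 genes, while the other 5 libraries had one for 25152 to 26302 genes. Mitochondrial genes took 6.19% to 6.59% of the counts in untreated libraries and 3.76% to 4.10% in r-CRMP2 libraries. The part of these differences in the results below was not tested. Without r-CRMP2 replicate 3, 4 of the 10 genes were higher and 1 was lower. The share of all genes called in that fit was not counted. The levels below are CPM, the counts of a gene relative to the library total after TMM normalization, which sets the libraries on a common scale. This scale matters for small changes. With the library total alone as the scale, the median log2 fold change of all genes was -0.34, and DUSP7 and DUSP4 changed sign there. Of 10 epithelial and ovarian markers checked, 2 or 3 were below 1 CPM in each library, and their summed level was 3417 to 3533 CPM in untreated and 3537 to 3824 CPM in r-CRMP2 libraries. KRT8 and KRT18, the keratins of simple epithelia, lay between 1218 and 1494 CPM in all libraries. Of the 8 epithelial and ovarian markers tested, 2 were higher (KRT18 and MSLN) and 2 lower (KRT7 and MUC16). Among all genes tested, 28.2% were higher and 30.1% lower. MSLN went from a mean of 245 CPM to 358 CPM, and KRT7 from 665 CPM to 573 CPM. CDH1 and WT1 were at most 0.18 and 0.11 CPM, and PAX8, a marker of Müllerian epithelium, lay between 3.08 and 4.40 CPM. Of 10 fibroblast markers, 9 were above 1 CPM in every library and FAP was below it. Their summed level was 590 to 661 CPM in untreated and 522 to 545 CPM in r-CRMP2 libraries. Within this sum, COL1A1 went from a mean of 419 CPM to one of 316 CPM. Of the 9 fibroblast markers tested, 4 were higher and 2 lower, with a median log2 fold change of 0.21. The part of these marker levels in the results was likewise not tested. The labels do not say that the samples of a group came from separately grown cultures, so p-values measure the spread between these samples.

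The promoter sequences of DUSP1, SPRY1 and SPRY2 are shown because these 3 genes rose on the TMM scale and on that of the library total alone. The RefSeq table (GRCh38.p14) held 8 of the 10 genes, all but DUSP4 and DUSP5, and the promoter of DUSP7 is left out because its change turned sign between these scales. Each sequence is read 5′ to 3′ on the strand of its gene and ends at the base before the start furthest upstream. Capitals mark matches to motifs searched on both strands.
DUSP1: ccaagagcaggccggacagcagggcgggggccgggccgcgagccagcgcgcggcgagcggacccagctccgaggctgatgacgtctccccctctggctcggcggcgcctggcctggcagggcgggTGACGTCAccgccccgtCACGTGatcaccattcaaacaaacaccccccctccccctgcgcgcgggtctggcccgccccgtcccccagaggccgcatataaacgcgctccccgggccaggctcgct
SPRY1: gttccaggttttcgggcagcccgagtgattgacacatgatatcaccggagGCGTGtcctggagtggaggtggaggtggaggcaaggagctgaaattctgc
SPRY2: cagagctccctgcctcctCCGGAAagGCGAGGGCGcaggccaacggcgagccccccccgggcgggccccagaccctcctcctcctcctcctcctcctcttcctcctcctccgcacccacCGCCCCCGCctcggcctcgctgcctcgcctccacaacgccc
The DUSP1 stretch is chr5:172771196-172771445 on the minus strand, the SPRY1 stretch is chr4:123396695-123396794 on the plus strand, and the SPRY2 stretch is chr13:80341127-80341286 on the minus strand.

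In DUSP1 the capitals are TGACGTCA, the cyclic AMP response element, 125 bases before the start, and CACGTG, in which ACGTG, a core of the hypoxia response element, overlaps its own reverse complement. Among all 35116 promoter windows (250 bases before and 50 after a start), 1.85% held TGACGTCA and 21.4% held ACGTG. Of the 8 matched genes, DUSP1 alone had either. In SPRY1 the capitals are GCGTG, the other form of that core, which 36.5% of windows held and which DUSP6 and SPRED2 also had. In SPRY2 they are CCGGAA, the core bound by ETS factors (17.2% of windows), and 2 matches to GCGNGGGCG, the motif of EGR factors (9.43% of windows). Counted over all their annotated starts, SPRY1 and SPRY2 held CCGGAA, and SPRY1, SPRY2 and SPRY4 held GCGNGGGCG. The AP-1 motif TGAGTCA (4.95% of windows) was found in SPRED2. The CArG box, bound by serum response factor (1.29% of windows), was found in none of the 12 windows of the 8 genes. These matches describe letters in a window and were not linked to binding.

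DUSP1 encodes an inducible nuclear phosphatase that acts on p38 and JNK as well as on ERK. Its gene lies on chromosome 5 (172195093 to 172198203, minus strand, in the deposited coordinates, which per the labels are hg19). It had 210, 228 and 242 CPM in untreated replicates 1, 2 and 3, and 633, 924 and 876 CPM in r-CRMP2 replicates 1, 2 and 3. The lowest treated library was thus far above the highest untreated one, and the treated libraries differed more among themselves than the untreated ones did. The means were 227 ± 15.8 and 811 ± 156 CPM (SD, n = 3 in each group). This gave a log2 fold change of 1.84 (standard error 0.18, edgeR adjusted p = 3.19e-11).

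DUSP5 is a nuclear phosphatase that binds ERK with high selectivity (chromosome 10, 112257625 to 112271302, plus strand). It had 14.1, 12.3 and 11.1 CPM in the untreated and 40.7, 50.1 and 49.6 CPM after r-CRMP2. The groups did not overlap, and, as for DUSP1, r-CRMP2 replicate 1 was the lowest of the treated libraries. On the log2 scale DUSP5 rose by 1.90 (standard error 0.14, edgeR adjusted p = 1.46e-11). A related transcript, DUSP5P1, had 16 to 51 counts per library, against 302 to 1139 for DUSP5. Among the 10 genes, DUSP5 had the smallest p-value.

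DUSP4, the other nuclear phosphatase of the group (chromosome 8, 29190579 to 29208267, minus strand), did not rise with DUSP1 and DUSP5. It had 189, 143 and 144 CPM in the untreated and 162, 170 and 165 CPM in the r-CRMP2 libraries. All treated libraries lay inside the untreated range, which untreated replicate 1 set at its upper end. DUSP4 had a log2 fold change of 0.06 (edgeR adjusted p = 0.553), and the 95% interval of the ratio ran from 0.816 to 1.36, so a rise like that of DUSP1 was outside it. Without untreated replicate 1, DUSP4 passed with a log2 fold change of 0.21 (edgeR adjusted p = 0.0145), and on the scale of the library total alone it was lower by the same test (-0.25, edgeR adjusted p = 0.0127).

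Of the cytoplasmic ERK phosphatases, DUSP7 rose slightly on the TMM scale and DUSP6 did not pass the test. DUSP7 (chromosome 3, 52082935 to 52090461, minus strand) had 48.5, 47.3 and 48.2 CPM in the untreated and 55.4, 53.5 and 55.9 CPM in the r-CRMP2 libraries. Its groups did not overlap, and its libraries were closely spaced, with SDs of 0.654 and 1.26 CPM (n = 3 in each group). DUSP7 rose by 0.19 on the log2 scale (standard error 0.02, edgeR adjusted p = 0.0161), and it was -0.12 with the library total as the scale (edgeR adjusted p = 0.142). The call was also lost without untreated replicate 2 (edgeR adjusted p = 0.0649) and without r-CRMP2 replicate 3 (edgeR adjusted p = 0.0551). DUSP6, the best known cytoplasmic ERK phosphatase (chromosome 12, 89741602 to 89746636, minus strand), was barely detected. It had 30, 22 and 22 counts in the untreated and 32, 28 and 18 counts in the r-CRMP2 libraries, or 0.784 to 1.498 CPM, and the groups overlapped. Its log2 fold change of 0.40 (edgeR adjusted p = 0.322) had a 95% interval of the ratio from 0.712 to 2.25, which holds both no change and a doubling.

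**Figure D1:**
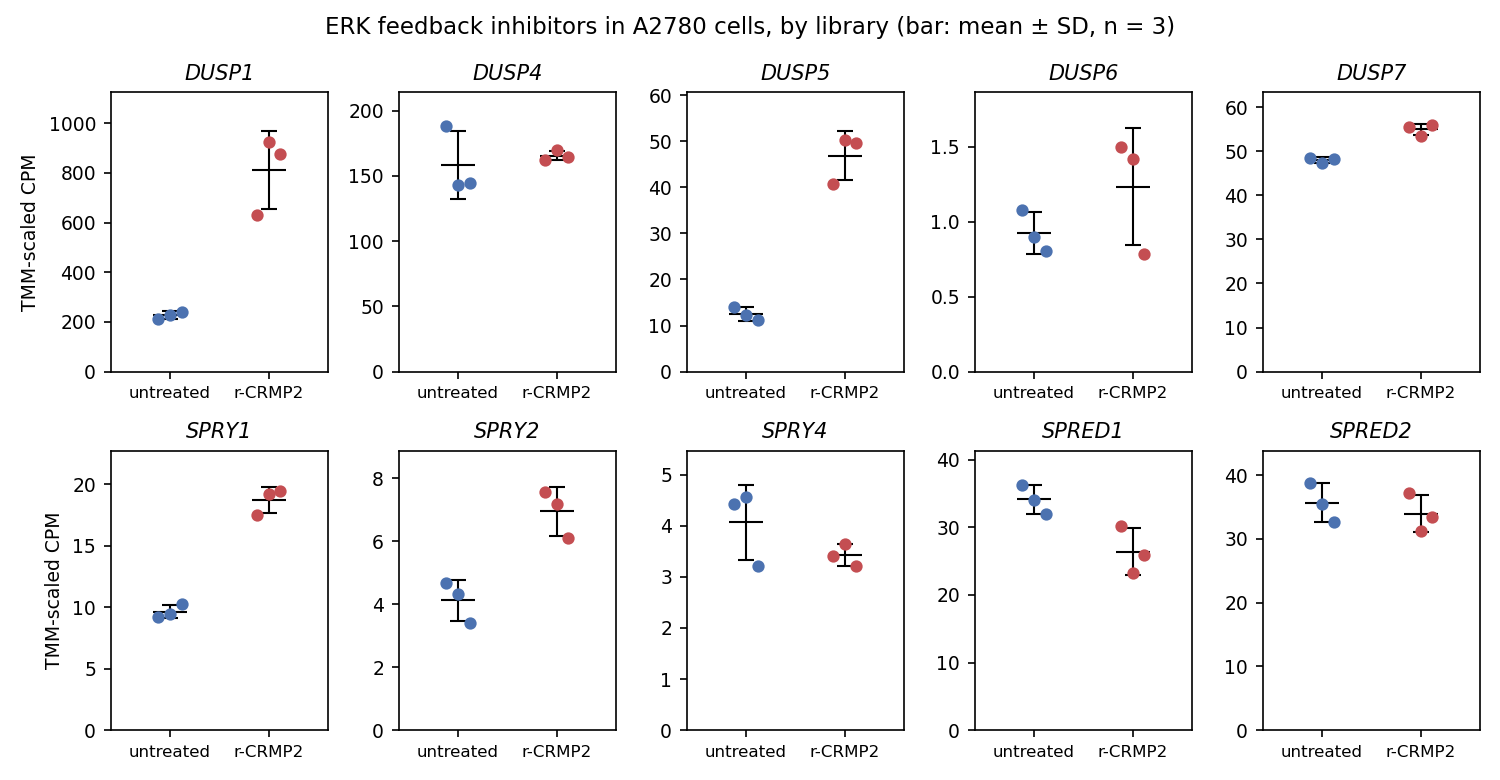
TMM-scaled CPM of each of the 10 genes (vertical axis, from 0, scaled per gene) in the untreated (blue) and r-CRMP2 (red) libraries, with points for libraries and bars for mean ± SD (n = 3). DUSP1, DUSP5, DUSP7, SPRY1 and SPRY2 are higher in every r-CRMP2 library, SPRED1 is lower in every one, and the other 4 genes overlap between groups.

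Of the Sprouty genes, SPRY1 and SPRY2 rose and SPRY4 did not pass the test. SPRY1 (chromosome 4, 124317950 to 124324915, plus strand) had 9.20, 9.45 and 10.2 CPM in the untreated and 17.5, 19.2 and 19.4 CPM in the r-CRMP2 libraries. Every treated library was thus well above every untreated one. SPRY1 rose by 0.96 on the log2 scale (standard error 0.07, edgeR adjusted p = 1.50e-07), just under 1, and it was 1.02 without r-CRMP2 replicate 1.

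SPRY2 (chromosome 13, 80910111 to 80915250, minus strand) encodes a Sprouty that dampens signaling from receptor tyrosine kinases. It had 4.67, 4.32 and 3.40 CPM in the untreated and 7.58, 7.18 and 6.10 CPM in the r-CRMP2 libraries, with no overlap. SPRY2 rose by 0.75 on the log2 scale (standard error 0.16, edgeR adjusted p = 0.000498). SPRY4 (chromosome 5, 141689992 to 141704620, minus strand), another Sprouty, had 4.42, 4.56 and 3.22 CPM in the untreated and 3.42, 3.64 and 3.22 CPM in the treated libraries. The treated libraries lay at the low end of the untreated range. Its log2 fold change was -0.25 (edgeR adjusted p = 0.259), and the 95% interval of the ratio was 0.621 to 1.17. A noncoding transcript listed inside SPRY4, SPRY4-IT1, had at most 2 counts per library, and those overlapping DUSP1 and SPRED2 had at most 4 and 3.

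The SPRED genes did not rise. SPRED1 (chromosome 15, 38545052 to 38649450, plus strand), the gene mutated in Legius syndrome, had 36.2, 34.1 and 32.0 CPM in the untreated and 30.1, 23.2 and 25.8 CPM in the r-CRMP2 libraries. Every treated library was below every untreated one, by a margin smaller than the spread within either group. Its change was -0.37 on the log2 scale (standard error 0.12, edgeR adjusted p = 0.00188). SPRED2 (chromosome 2, 65537985 to 65659656, minus strand) had 38.8, 35.5 and 32.7 CPM in the untreated and 37.2, 31.3 and 33.4 CPM in the r-CRMP2 libraries, and the groups overlapped. Its log2 fold change was -0.07 (edgeR adjusted p = 0.506), with a 95% interval of the ratio from 0.784 to 1.16.

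In total, 6 of the 10 genes had no overlap between the groups, as did 64.2% of all genes tested. On the scale of the library total alone, SPRY4 and SPRED2 were lower too (log2 fold changes of -0.56 and -0.38, edgeR adjusted p = 0.0128 and 0.00142). Relative to the median of all genes on that scale they were at -0.22 and -0.04, and DUSP4 and DUSP7 were at 0.09 and 0.22. Relative to the same median, DUSP1, DUSP5, SPRY1, SPRY2 and SPRED1 were at 1.86, 1.93, 0.98, 0.78 and -0.34.

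**Figure D2:**
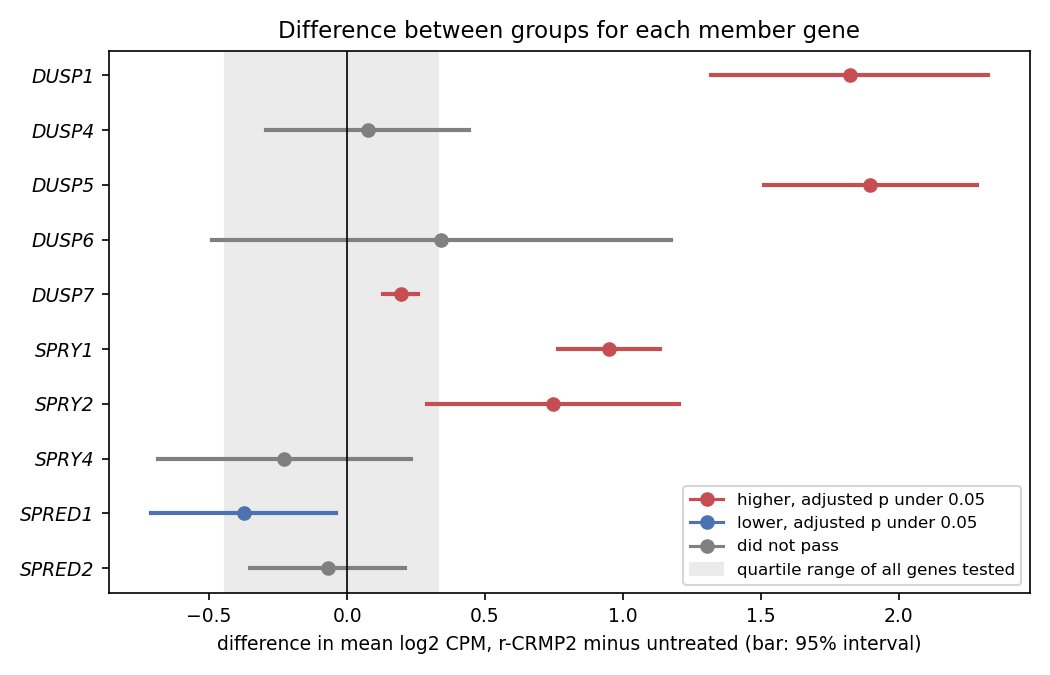
Difference in mean log2 CPM (horizontal axis, r-CRMP2 minus untreated) for each gene, with its 95% interval from the pooled spread of 3 libraries per group. The intervals of DUSP1 (1.32 to 2.32) and DUSP5 (1.51 to 2.28) lie right of all the others, and the grey band runs from the lower to the upper quartile of the log2 fold changes of all genes tested (-0.44 to 0.33).

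Levels of different genes were compared per length, as TPM (counts divided by gene length and rescaled to a common sum) within a library. In untreated cells DUSP1 led with a mean of 273 TPM (249 to 292 TPM in the 3 libraries), followed by DUSP4 with 52.6 ± 7.81 TPM (SD, n = 3) and DUSP7 with 36.1 ± 0.248 TPM. SPRED2, DUSP5, SPRED1 and SPRY1 had mean levels between 18.7 and 7.72 TPM, and SPRY2, SPRY4 and DUSP6 were lowest with 2.91, 1.79 and 0.664 TPM. The only neighbours in this order whose libraries overlapped were DUSP5 and SPRED1. In r-CRMP2 cells DUSP1 was again first, with 775 ± 124 TPM (SD, n = 3), and DUSP5 came next after DUSP4, with 35.9 ± 3.01 TPM, overlapping DUSP7. SPRY1 came to stand above SPRED1, with 11.9 and 7.10 TPM, and the other overlapping neighbours were SPRED2 and SPRY1.

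Ratios of genes within a library do not depend on how libraries are scaled. The ratio of DUSP1 to DUSP4, in TPM, was 4.05, 5.78 and 6.08 in the untreated and 14.1, 19.8 and 19.3 in the r-CRMP2 libraries. DUSP1 thus moved away from DUSP4 in every treated library. The ratio of SPRY1 to SPRY4 was 3.79, 3.77 and 5.79 in the untreated and 9.29, 9.60 and 10.96 in the treated libraries. The ratio of SPRY1 to SPRED1 was 0.606, 0.662 and 0.763 in the untreated and 1.38, 1.98 and 1.79 in the r-CRMP2 libraries, so the order of this pair turned. DUSP1 alone made up 61.5% to 68.3% of the summed TPM of the 10 genes in untreated and 80.3% to 85.3% in r-CRMP2 libraries. Without DUSP1, the sum of the other 9 was 136 to 156 TPM in untreated and 146 to 155 TPM in r-CRMP2 libraries, which overlapped. Such sums, unlike ratios, depend on how libraries are scaled. TPM takes no TMM factor, so this overlap does not carry over to the TMM scale.

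**Figure D3:**
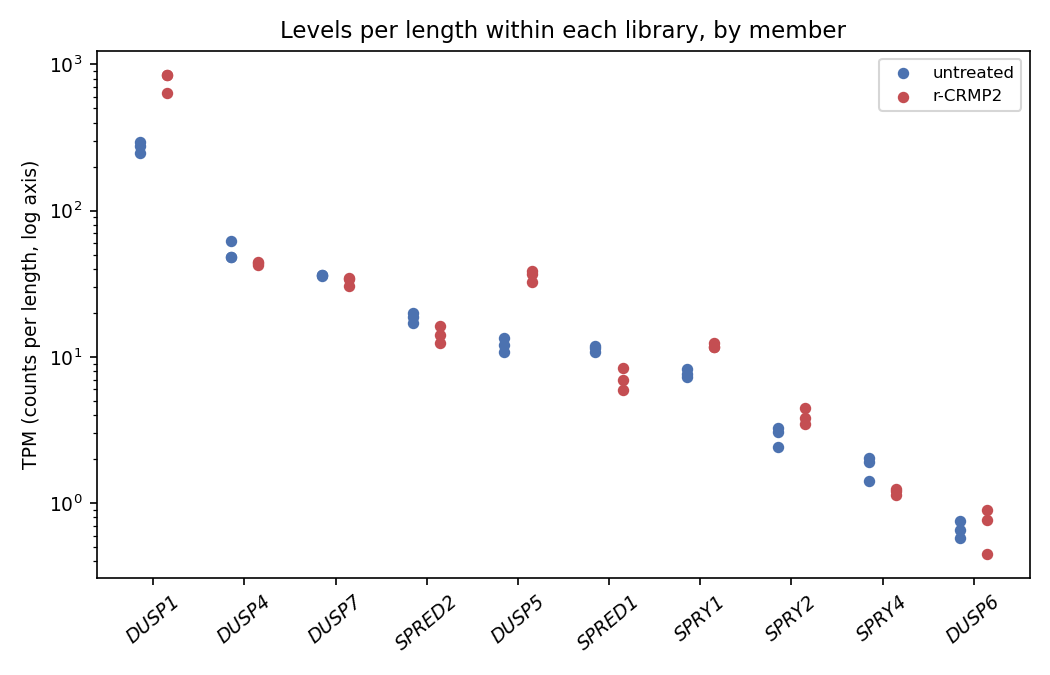
TPM of each gene (vertical axis, logarithmic) in the 3 untreated (blue) and 3 r-CRMP2 (red) libraries, ordered by the untreated mean. Levels span from DUSP1, at 249 to 850 TPM, to DUSP6, at 0.453 to 0.893 TPM.

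The closest relatives of these genes were mixed as well. Of 7 relatives listed (DUSP2, DUSP8, DUSP9, DUSP10, DUSP16, SPRY3 and SPRED3), 6 were tested, 3 rose, 1 fell and 2 did not pass, with a median log2 fold change of 0.22, beside the 28.2% of all genes higher and 30.1% lower. DUSP10, which acts mainly on JNK and p38, had 9.13, 9.25 and 9.32 CPM in the untreated and 22.9, 25.5 and 25.9 CPM in the r-CRMP2 libraries (log2 fold change 1.42, edgeR adjusted p = 3.01e-10). DUSP2, a nuclear phosphatase and an immediate-early gene, had 38.6, 72.4 and 90.9 CPM in the untreated and 22.8, 29.6 and 23.6 CPM in the r-CRMP2 libraries. It fell in the opposite direction to DUSP1 and DUSP5 (-1.41 on the log2 scale, standard error 0.39, edgeR adjusted p = 4.41e-06), and its untreated libraries were widely spread. On the scale of the library total, 3 of the 6 relatives were lower. There the median of all genes was -0.34, and the share of all genes called was not counted.

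Of 10 other inhibitors of the relay (ERRFI1, IL17RD, LRIG1, CBL, NF1, RASA1, RASA2, PEBP1, PEA15 and ERF), 7 rose and none fell on the TMM scale, where 28.2% of all genes tested were higher and 30.1% lower, and the median log2 fold change was 0.22. On the scale of the library total, where the median of all genes was -0.34, 2 were higher and 3 lower. Their count of rises was 4 without untreated replicate 2 and 4 without untreated replicate 3. Shares of all genes called were counted in the main fit only. Of these 10 inhibitors, 1 rose past both thresholds, against 5.12% of all genes. They were, like the other lists, chosen with earlier results of these data known, so the counts are descriptive. ERRFI1, an inducible inhibitor of the EGF receptor kinase, rose by more than DUSP1 or DUSP5. It had 102, 92.8 and 85.7 CPM in the untreated and 668, 759 and 788 CPM in the r-CRMP2 libraries, with no overlap (2.98 on the log2 scale, standard error 0.10, edgeR adjusted p = 2.92e-15). NF1, the partner of the SPRED proteins, had a log2 fold change near 0 (edgeR adjusted p = 0.999, 95% interval of the ratio 0.807 to 1.23), and it is named for that partnership.

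The relay itself, from the FGF receptors to ERK, had as many genes higher as lower. Of 19 genes, 5 rose, 5 fell and 9 did not pass, shares near the 28.2% higher and 30.1% lower among all genes tested. The median log2 fold change was 0.06. On the scale of the library total 2 were higher and 14 lower. There the median of all genes was itself -0.34, and the share of all genes called was not counted. FGFR2, a receptor for fibroblast growth factors, had 17.0, 20.2 and 21.8 CPM in the untreated and 8.80, 7.18 and 10.1 CPM in the r-CRMP2 libraries, and was the 1 gene of the relay past both thresholds (log2 fold change -1.17, edgeR adjusted p = 1.75e-07).

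Genes commonly used as readouts of ERK activity moved apart. The 12 listed were EGR1, FOS, FOSL1, ETV1, ETV4, ETV5, PHLDA1, CCND1, EPHA2, EPHA4, IER3 and MYC. Of these, 10 were tested, 7 rose, 2 fell and 1 did not pass, beside the same shares of all genes, with a median log2 fold change of 0.67. The gene that did not pass was FOS (edgeR adjusted p = 0.154). It had 121, 194 and 253 CPM in the untreated and 172, 275 and 255 CPM in the r-CRMP2 libraries, and the groups overlapped. FOSL1, an AP-1 subunit, had 15.2, 17.3 and 13.5 CPM in the untreated and 77.9, 98.8 and 96.3 CPM in the r-CRMP2 libraries (log2 fold change 2.57, edgeR adjusted p = 2.50e-13). IER3, an immediate-early gene, had a mean of 367 ± 34.4 CPM in untreated and 3090 ± 542 CPM in r-CRMP2 libraries (SD, n = 3 each; log2 fold change 3.07, edgeR adjusted p = 6.73e-14). In the other direction, EGR1 had 63.6, 115 and 147 CPM in the untreated and 6.74, 3.74 and 3.40 CPM in the r-CRMP2 libraries (log2 fold change -4.55, edgeR adjusted p = 3.43e-11). CCND1, which encodes cyclin D1, had 161 ± 3.40 CPM in untreated and 78.2 ± 5.86 CPM in r-CRMP2 libraries (SD, n = 3 each), and its change was -1.04 (edgeR adjusted p = 1.79e-10).

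**Figure D4:**
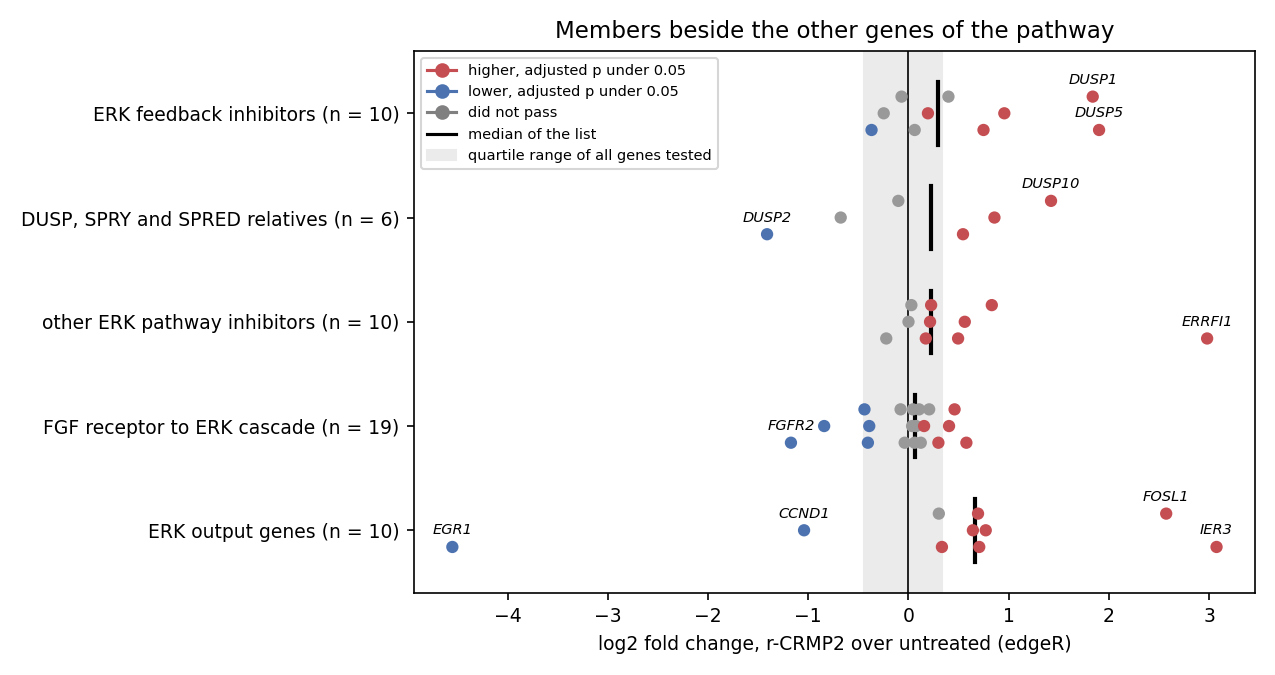
Log2 fold change (horizontal axis, r-CRMP2 over untreated) of the 10 inhibitors and of the other genes of the pathway, 1 point per gene tested, with the median of each list as a black bar and the range between the quartiles of all genes tested in grey. DUSP1 and DUSP5 are the 2 members beyond 1, and ERRFI1, IER3 and FOSL1 lie further right while EGR1 lies furthest left.

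Over the 6 libraries, the 5 genes whose centred log2 CPM lay closest to that of DUSP5 were KRT17, H1F0, DDIT4, the antisense gene ENSG00000269926.1 and PLIN2. Their root mean square distances were 0.04, 0.04, 0.05, 0.06 and 0.07 on the log2 scale, and their log2 fold changes lay between 1.82 and 1.94. They share with DUSP5 the same 6 libraries and a like difference between the groups. ENSG00000269926.1 lies on the other strand inside DDIT4. Without strand, reads from the stretch this pair shares cannot be told apart, and how such reads were counted is not known.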

How the data were processed

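RNA from 3 untreated and 3 r-CRMP2-treated A2780 samples was poly(A)-selected and sequenced. The submitters' processing notes name FastQC, HISAT2, DESeq2 and hg19. The counting tool, the annotation and the strand setting were not given in the sources used here, and the library kit named in the study's methods does not mark strand. The deposited counts per gene are not normalized. The TPM values deposited by the authors follow from the counts and gene lengths (largest difference 4.72e-06), so TPM here was computed from the counts.

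Groups came from the sample titles. Counts were compared with edgeR 4.0.16 (quasi-likelihood test, limma 3.58.1, R 4.3.3), TMM normalization, edgeR's low-count filter and Benjamini-Hochberg adjustment over 16222 genes. Thresholds were an adjusted p-value of 0.05 and, where stated, a log2 fold change of 1 in size. Standard errors and 95% intervals come from log2 CPM with a prior count of 2 and a pooled spread with 4 degrees of freedom for the intervals. Between-replicate chi-square values were 3.62 to 10.3 per degree of freedom, so no library was a duplicate. The fit was tested on simulated counts.

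The members and lists were chosen with earlier results of these data known. Named genes are the 10 members, the genes of each list past both thresholds, and the 5 genes nearest to the member with the smallest p-value. NF1, FOS, the marker genes and the overlapping transcripts were added. The fit was repeated with DESeq2 1.42.0, with RLE scaling, with library totals as the only scaling, without the low-count filter, with a minimum of 10 counts in all libraries, with the replicate number as a block and without each library. No columns of other samples were present.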

Additional observations from a re-analysis of the deposited data

How the results depend on the processing

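DUSP1, DUSP5, SPRY1, SPRY2 and SPRED1 kept their direction and their adjusted p-value under 0.05 in all 12 alternatives run. Library size alone moved the most: 4 members were lower in place of 1, 3 relatives were lower in place of 1, 2 of the other inhibitors were higher and 3 lower in place of 7 and 0, and 2 genes of the relay were higher and 14 lower in place of 5 and 5. That scale turned DUSP4 to -0.25 and DUSP7 to -0.12, and brought SPRY4 (-0.56) and SPRED2 (-0.38) past the threshold, all on the log2 scale. The median log2 fold change of all genes was -0.34 on that scale and -0.03 on the TMM scale. The share of all genes called on that scale was not counted, so these counts cannot be set against it. The TMM factor was higher in every untreated library than in every r-CRMP2 library, so the choice of scale shifts all genes between the groups. Which of the scales is closer to the RNA per cell was not tested. Without a low-count filter, 4 of the other inhibitors were higher, and DUSP7 (0.19) lost the threshold (adjusted p = 0.0727 from the edgeR test). The cause was not tested.

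Leaving out 1 library at a time gave 4 to 6 members higher, 1 lower in each fit, and 2 to 3 past both thresholds. The shares of all genes called were counted in the main fit only, so counts in the alternatives have none beside them. The log2 fold change of DUSP4 ranged from -0.01 to 0.21, with -0.0074 without untreated replicate 2 and -0.0011 without untreated replicate 3, and that of DUSP7 from 0.18 to 0.22. Of the other inhibitors, 4 to 7 were higher and 0 to 1 lower. The 8 genes of the pathway lists past both thresholds kept their direction and an adjusted p-value under 0.05 in all alternatives. Of these, CCND1 was at -0.98 without r-CRMP2 replicate 2, inside the fold threshold. With the replicate number as a block, 5 members were higher and 1 lower, and no call of a member changed. Same-numbered libraries deviated from their group means with correlations across genes of -0.02, 0.0038 and -0.03, so the numbers gave no pairing. DUSP6 had 18 to 32 counts per library, and the part of this depth in its result was not tested.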
